A study of Mus musculus with 474 samples.

Results

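The muscle transcriptomes of mice with much and with little Ppargc1a RNA were compared in the gastrocnemius of Diversity Outbred (DO) mice. Ppargc1a encodes PGC-1α, a transcriptional coactivator. The animals were placed in 10 groups by sex and generation as written in their titles, and in each group the 5 libraries with the highest and the 5 with the lowest Ppargc1a in the deposited variance-stabilised values were taken. This gave 50 Ppargc1a-high and 50 Ppargc1a-low libraries, 1 per animal. These 100 libraries are 21.1% of the series, and 35 to 40 libraries of each group were not chosen. Because the libraries were chosen by the measured value of Ppargc1a, its own difference is a description without a test, and neither class is a treatment.

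DO mice are outbred animals that descend from 8 inbred founder strains, and no animal is a genetic copy of another. Females and males of title generations 17, 18, 19, 21 and 23 were fed a high-fat, high-sugar diet with 45% of energy from fat from 4 weeks of age, and muscle was taken at 22 weeks. No animal was on another diet, none carried an engineered allele and none received a drug, so both classes share the diet, the age and the tissue. The groups held 45 to 50 animals each. Whole muscle was sequenced, and in such bulk RNA fewer cells of a type and less RNA per cell cannot be told apart. The hour of harvest and the feeding state of each animal are not in the labels.

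PGC-1α does not bind DNA itself. It docks on nuclear receptors and other factors, among them the PPARs, the estrogen-related receptors, NRF-1 and MEF2, and raises transcription of their targets. In muscle it is known for inducing mitochondrial biogenesis, fatty acid oxidation, blood vessel growth and slow-fibre genes. Its own gene is turned on by exercise, cold, fasting, β-adrenergic signals, calcium and AMP kinase, in part through CREB at a cAMP response element in its promoter. It is also a gene with several start sites, and a count over the whole gene does not separate the isoforms.

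Ppargc1a (ENSMUSG00000029167) lies on the minus strand of chr5:51454250-51567726 (GRCm38). The gene overlaps 4 short annotated transcripts of unknown coding status, among them Gm42614, Gm42615 and Gm43605, and use of strand in counting is not given in the sources used here. In CPM, expected counts per M counts of the library, scaled by TMM factors it ran from 84.2 to 268.6 in the high libraries (median 141, mean 158 ± 47.5, SD, n = 50). In the low libraries it ran from 19.97 to 51.6 CPM (median 37.2, mean 37.3 ± 7.19, n = 50). The ratio of the means was 4.23. On the variance-stabilised (VST) scale, which is close to log2, the high libraries spanned 12.95 to 14.50, the low libraries 10.98 to 12.18 and the libraries not chosen 11.48 to 13.72. The classes therefore overlapped with the middle libraries of other groups, because the limits were set within each group.

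The limits differed between groups. In females of generation 19 the 5th highest library stood at 12.95 VST and the 6th at 12.91, the lowest upper limit of the 10 groups. Males of generation 18 had the highest one, with 13.79 just inside and 13.72 just outside. At the lower end, females of generation 19 had their 5th lowest library at 11.39 and the 6th at 11.48, while in males of generation 18 these stood at 12.18 and 12.20. In males of generation 17 the libraries on either side of the upper limit were nearly equal, at 13.71 and 13.71. Ppargc1a was well counted, with 1410 to 32209 expected counts per library (median 5210.5) over the whole series. A ranking by log2 CPM placed 90% of the 100 libraries in the same class.

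**Figure D1:**
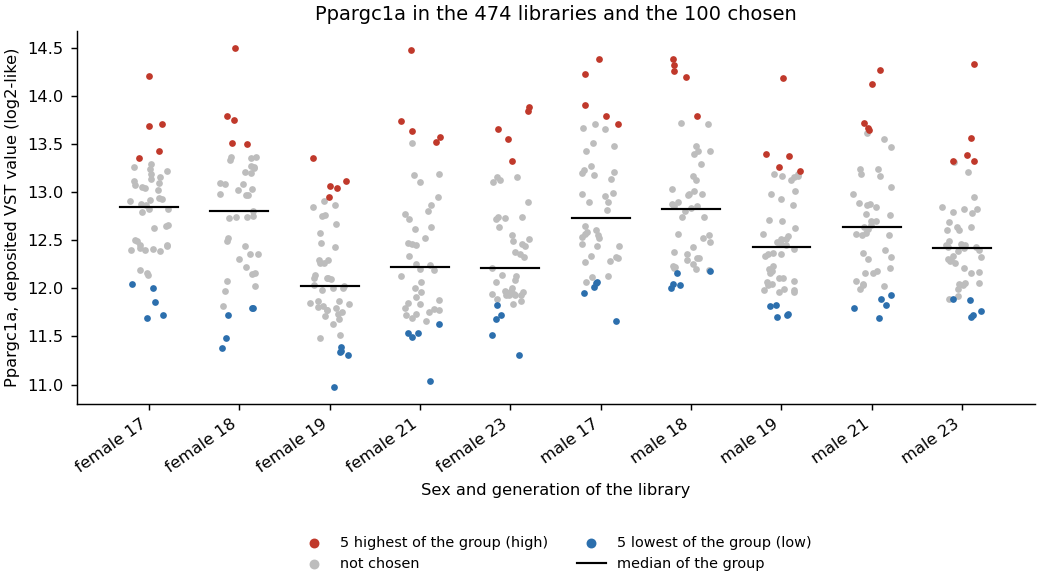
Ppargc1a in the deposited variance-stabilised values (vertical axis) by sex-by-generation group (horizontal axis), with 1 point per library and 5 high, 5 low and the unchosen libraries of each group in different colours. High libraries lie between 12.95 and 14.50 and low libraries between 10.98 and 12.18, and the limits move from group to group.

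The 100 libraries held 48.3 to 166 M expected counts (M, mega-counts; median 81.3 M), and the mean log2 total of high minus low libraries was -0.010 (permutation test within groups, 2-sided, p = 0.860). In 5 libraries of the series the sex-linked RNA went against the labelled sex. Of these, 2 were among the 100, both in the high class, as a male of generation 18 and a male of generation 19. Library numbers in the titles have 1 gap of more than 3 numbers and were divided, after the data were seen, into 5 blocks of at most 96 numbers (91 to 96 libraries each). The classes were spread over all 5, with 8 high and 6 low, 10 and 9, 14 and 15, 8 and 12, and 10 and 8. The labels do not say whether stretches of numbers mark a batch. Muscle markers were abundant in both classes, with a median of 21342 CPM of Acta1 in high and 21878 in low libraries and 12885 and 13429.8 CPM of Ckm.

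Across 18822 other genes, 2167 (11.5%) differed between the classes at an adjusted p under 0.05 by edgeR's quasi-likelihood test with Benjamini-Hochberg adjustment. Of these, 1154 (6.13% of those tested) were higher and 1013 (5.38%) lower in the high libraries. Most of the differences were small. The median size of a called difference was 0.18 on the log2 scale, and 127 genes (0.675%) were called with at least 1.5-fold, 103 higher (0.547%) and 24 lower (0.128%). No gene other than Ppargc1a had high and low libraries that did not overlap in CPM (0 of 18822). Without the 2 libraries whose RNA went against their label, 2074 genes were called. The balance of directions depended on the scaling. With library totals in place of TMM factors, 3731 genes were called, of which 3155 were lower, and the share of higher calls went from 53.3% to 15.4%. The median difference over all genes was then -0.058, beside -0.0061 with TMM factors.

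The 12 largest rises among protein-coding genes with the same direction in all 10 groups were led by Nr4a3 (ENSMUSG00000028341, chr4:48045153-48086447). Nr4a3 encodes NOR-1, an orphan nuclear receptor that contraction and β-adrenergic signals induce in muscle. It was at 20.3 to 265.7 CPM (median 90.4) in the high libraries and 8.19 to 68.9 CPM (median 27.7) in the low. In 33 of the 50 high libraries it exceeded every low library, although the ranges overlapped. The difference was 1.73 on the log2 scale (SE 0.15, edgeR adjusted p = 7.00e-16), or 3.32-fold, and it ran from 0.87 to 2.13 within the 5 blocks.

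Irs2 (chr8:10984681-11008458), an adaptor that carries the insulin signal from the receptor to PI3-kinase, was the next rise with a known role in fuel use. It was at 38.0 to 204 CPM (median 87.6) in the high libraries and 16.9 to 103 CPM (median 41.1) in the low. All but 1 of the high libraries lay above the low median, and 17 above every low library (log2 1.03, SE 0.13, adjusted p = 1.75e-09). Xirp1, an actin-binding Xin repeat protein of muscle attachment sites that rises with mechanical strain, was at 189.7 to 1599.8 CPM (median 574.6) in the high libraries and 163 to 699.8 CPM (median 321) in the low (log2 0.83, SE 0.10, adjusted p = 3.54e-09). Retreg1, a receptor for autophagy of the endoplasmic reticulum, was at 122 to 1171 CPM (median 221.2) in the high libraries and 80.5 to 246.3 CPM (median 144) in the low. Its highest high library held 9.17% of the summed CPM of that class, and 48 of 50 high libraries lay above the low median (log2 0.77, SE 0.095, adjusted p = 1.50e-09).

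Tmem82, a membrane protein of little known function, was low in both classes, with 0.487 to 7.29 CPM (median 1.39) in the high libraries and 0.188 to 2.12 CPM (median 0.821) in the low (log2 1.03, SE 0.16, adjusted p = 2.84e-06). Narrower spreads were seen for 3 of the rises. Impact, an inhibitor of the amino acid sensor GCN2, was at 17.3 to 74.1 CPM (median 29.2) in the high libraries and 11.3 to 27.5 CPM (median 19.1) in the low (log2 0.69, SE 0.071, adjusted p = 2.49e-12). Rab30, a small GTPase of the Golgi, was at 7.24 to 22.4 CPM (median 12.02) in the high libraries and 5.15 to 14.2 CPM (median 7.38) in the low (log2 0.69, SE 0.068, adjusted p = 7.33e-13). Slc20a1, a phosphate importer, exceeded every low library in 31 of 50 high libraries, with medians of 39.2 and 26.6 CPM (log2 0.67, SE 0.070, adjusted p = 7.09e-12). The others of the 12 were Lonrf3 (0.72), the sperm ion channel subunit Catsper4 (0.70), the nuclear protein Csrnp1 (0.70) and Ankrd33b (0.66, all log2). Of the 12, 6 overlap another annotated gene (Csrnp1, Impact, Irs2, Rab30, Slc20a1 and Xirp1), and reads in the shared part cannot be assigned by strand here.

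The falls were smaller. G0s2 (chr1:193272161-193273217), an inhibitor of adipose triglyceride lipase, led them with 1.32 to 19.1 CPM (median 5.41) in the high libraries and 3.71 to 41.3 CPM (median 12.1) in the low. In 17 high libraries it was below every low library, and 7 of 50 lay above the low median (log2 -1.08, SE 0.16, adjusted p = 4.44e-07). Agpat2, which makes phosphatidic acid for triglycerides and phospholipids, was at 2.54 to 18.7 CPM (median 5.19) in the high libraries and 2.87 to 44.3 CPM (median 6.10) in the low (log2 -0.46, SE 0.15, adjusted p = 0.0274), with 10.5% of the low class's CPM in 1 library, and its call was lost in 10 of 31 alternatives, among them the one with scores of other cell types. Srebf1, a transcription factor of fatty acid synthesis genes, was at 10.9 to 71.2 CPM (median 30.3) in the high libraries and 17.6 to 162 CPM (median 42.1) in the low (log2 -0.44, SE 0.11, adjusted p = 0.00325).

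The ceramide synthase Cers1 (-0.33), the heme receptor and clock repressor Nr1d1 (-0.39), the BMP co-receptor Rgma (-0.39) and the R-spondin receptor Lgr6 (-0.45) were also among the 12, as were the glutaminyl cyclase Qpctl (-0.35), the chloride channel Ttyh2 (-0.40), the calcium channel subunit Cacng7 (-0.40) and the scaffold protein Grip2 (-0.33, all log2). Another annotated gene overlaps 8 of the 12 (Agpat2, Cacng7, Cers1, G0s2, Nr1d1, Qpctl, Rgma and Srebf1). Rgma and Lgr6 had the opposite sign within the last block of library numbers (log2 0.30 and 0.29, neither called there).

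**Figure D2:**
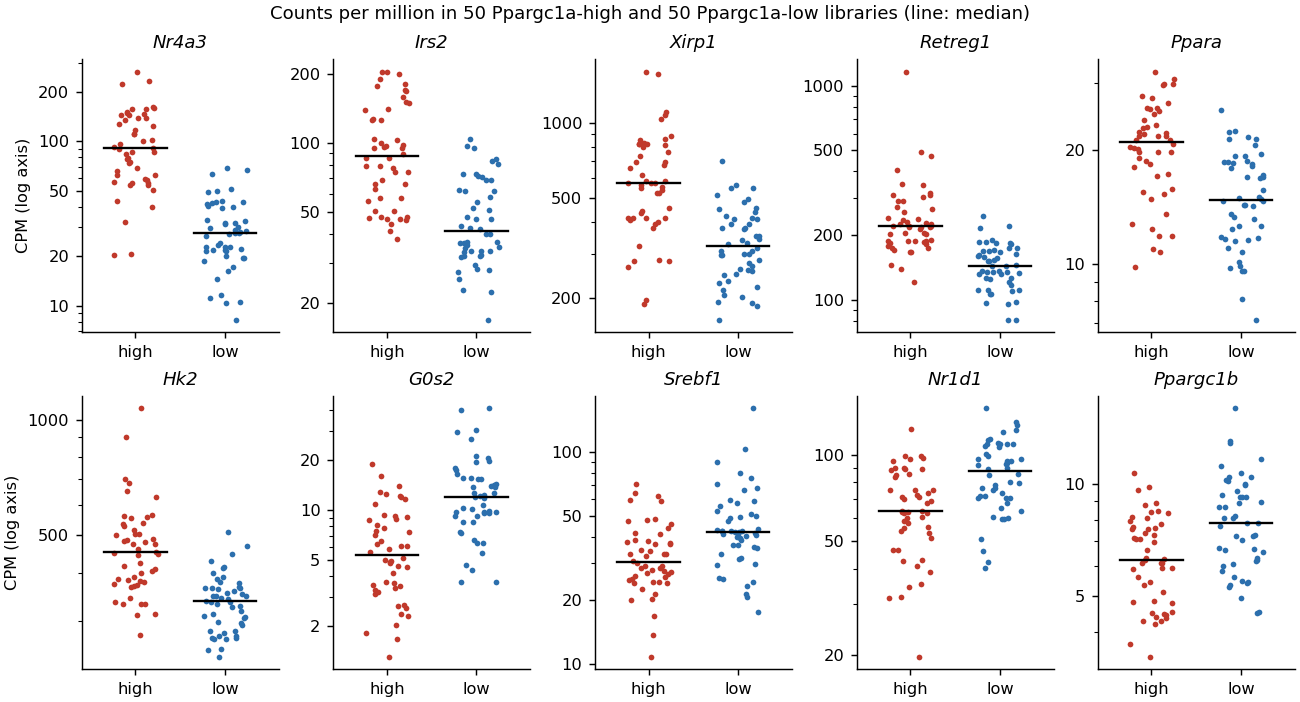
CPM on a log axis of 10 genes in each of the 50 high and 50 low libraries (1 point per library, line at the class median). Nr4a3, Irs2, Xirp1, Retreg1, Ppara and Hk2 are shifted up in the high libraries and G0s2, Srebf1, Nr1d1 and Ppargc1b down, and the classes overlap for every gene shown.

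The promoters of the leading genes were read in RefSeq's GRCm38.p6 annotation, as the 250 bases before each start, since CREB is a known activator of Ppargc1a and Nr4a3. RefSeq's starts of Nr4a3 and Retreg1 lie inside the genes as the deposited table places them, so these 2 windows reach into those genes. The searched letters were the full palindromic cAMP response element TGACGTCA, its core TGACG (which lies within the palindrome on both strands and is counted there too), the E-box CACGTG, a longer E-box of the type bound by TFEB (CACGTG with GT before and AC after it, counted under the E-box too) and the estrogen-related receptor element TCAAGGTCA. The windows of Ppargc1a, Nr4a3 and Retreg1 are printed with the motif in capitals, 5′ to 3′ on the gene's strand, chosen after their values and letters were seen.
Ppargc1a promoter, chr5:51567726-51567975, minus strand: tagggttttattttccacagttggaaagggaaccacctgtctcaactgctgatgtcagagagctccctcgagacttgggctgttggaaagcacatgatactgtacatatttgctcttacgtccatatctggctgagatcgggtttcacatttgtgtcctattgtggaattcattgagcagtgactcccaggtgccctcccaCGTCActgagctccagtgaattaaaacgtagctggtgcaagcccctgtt
Nr4a3 promoter, chr4:48045055-48045304, plus strand: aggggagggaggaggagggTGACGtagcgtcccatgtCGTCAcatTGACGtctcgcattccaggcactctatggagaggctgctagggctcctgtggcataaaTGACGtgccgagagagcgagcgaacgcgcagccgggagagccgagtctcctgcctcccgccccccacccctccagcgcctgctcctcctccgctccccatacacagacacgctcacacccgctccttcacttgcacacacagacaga
Retreg1 promoter, chr15:25843048-25843297, plus strand: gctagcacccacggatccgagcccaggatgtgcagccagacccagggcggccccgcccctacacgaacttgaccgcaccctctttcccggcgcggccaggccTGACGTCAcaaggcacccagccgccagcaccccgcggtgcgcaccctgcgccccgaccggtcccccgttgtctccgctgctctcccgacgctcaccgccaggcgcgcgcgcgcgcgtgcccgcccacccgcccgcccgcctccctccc

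Only windows that hold the motif were printed, and any other windows of the same genes are not shown. Counted from the start, the printed Ppargc1a window holds the core once, from -49 to -45, and read on the other strand (CGTCA). Nr4a3 holds it 4 times, beginning at -231, -213, -205 and -147, of which the copy at -213 is on the other strand. Retreg1 holds the whole palindrome from -148 to -141. Of the tested genes, 12701 had a window. A gene counted once if any of its windows held the letters, and some genes had more than 1 window (32851 windows for 27025 genes). The core was found in 37.4% of the 820 genes called higher that had a window and in 28.6% of the 804 called lower. It was found in 27.8% of tested genes and in 19.8% of all 27025 genes with a window. For the palindrome these shares were 5.37%, 2.61%, 2.66% and 1.77%. The E-box was in 13.4%, 8.33%, 9.22% and 6.86%. The longer E-box was in 1.46%, 0.498%, 0.488% and 0.27%, and in none of the windows of the 12 rises and 12 falls. The estrogen-related receptor element was rare, in 0.366% of genes called higher, 0.622% of those called lower, 0.315% of those tested and 0.422% of all. Of the 12 rises, 8 had a window and 5 held the core (Ankrd33b, Csrnp1, Nr4a3, Retreg1 and Slc20a1), and of the 12 falls 9 had a window and 1, G0s2, held it. These shares are descriptions of letters, with no test.

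Among the coactivator family and the factors it docks on, 6 of 35 rose and 4 fell, beside 6.13% higher and 5.38% lower over all genes tested. Their median log2 difference was 0.017, beside -0.0061 over all genes. Ppara, the fasting-activated PPAR of fatty acid oxidation, was at 9.82 to 32.2 CPM (median 20.99) in the high libraries and 7.14 to 25.5 CPM (median 14.8) in the low. It rose in all 10 groups (log2 0.45, SE 0.080, adjusted p = 3.60e-05). Ppargc1b, which encodes the related coactivator PGC-1β, was at 3.43 to 10.7 CPM (median 6.25) in the high libraries and 4.49 to 16.0 CPM (median 7.83) in the low and was lower in the high libraries of all 10 groups (log2 -0.32, SE 0.076, adjusted p = 0.00279), with 0.041 in 1 of the 5 blocks. Foxo1 and Foxo3, factors of fasting and atrophy, rose by 0.52 (adjusted p = 0.00570) and 0.23 (0.00729). Both were called in females alone (0.71 and 0.42) and not in males alone, and neither had a called interaction with sex. Mef2a (0.15), the acetyltransferase Crebbp (0.13) and the muscle regulator Perm1 (0.16, adjusted p = 0.0419) rose as well, and the call of Perm1 was lost in 17 of 31 alternatives, among them the one without the 2 libraries that went against their label. The sterol factor Srebf2 (-0.19) and the liver X receptor Nr1h3 (-0.16) fell with Srebf1. With library totals the list had 4 higher and 9 lower.

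Esrra, Nrf1, Gabpa, Tfam and Ppard did not pass the test. Esrra, the estrogen-related receptor α, differed by -0.025 (95% interval -0.098 to 0.048), Nrf1 by -0.0032 (95% interval -0.058 to 0.051) and Gabpa by 0.0032 (95% interval -0.070 to 0.077). Tfam, the mitochondrial DNA packaging factor, differed by -0.029 (95% interval -0.088 to 0.030) and Ppard by -0.047 (95% interval -0.13 to 0.041). These intervals are narrow, and each excludes a difference of 1.5-fold. Esrrg was 0.17 (95% interval 0.033 to 0.30) (adjusted p = 0.0979) and Pprc1, the remaining coactivator of the family, -0.087 (95% interval -0.16 to -0.015) (adjusted p = 0.112). Of 18 repressors and modifiers of the coactivator 2 were called, close to the 11.5% over all genes. The deacetylase Sirt1 rose (log2 0.22, SE 0.053, adjusted p = 0.00223) and the acetyltransferase Kat2a fell (log2 -0.11, SE 0.027, adjusted p = 0.00404). With library totals 1 of the 18 was higher and 7 were lower. The corepressor Nrip1 was 0.16 (95% interval 0.0063 to 0.31), adjusted p = 0.181.

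Of 36 kinase, calcium and cAMP signalling genes that act upstream of Ppargc1a, 4 rose and 3 fell, beside 6.13% higher and 5.38% lower over all genes. The calcineurin target Rcan1 rose most (log2 0.63, SE 0.098, adjusted p = 2.08e-06), with 60.5 to 429.1 CPM (median 149) in the high libraries and 46.7 to 191 CPM (median 103) in the low. The calcineurin subunits Ppp3r1 and Ppp3cb rose by 0.18 and 0.13. Prkab1, a regulatory subunit of AMP kinase, fell by 0.18, the CREB coactivator Crtc1 by 0.12 and the kinase Mapk14 by 0.077 on the log2 scale. The catalytic AMP kinase subunit Prkaa2 was 0.11 (95% interval 0.033 to 0.18), adjusted p = 0.0509. With library totals the count was 3 higher and 10 lower.

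Of 32 tested genes that respond to cAMP and contraction, 14 rose and 0 fell, beside 6.13% of all genes tested that were higher. The other 18 did not pass, and the median log2 difference was 0.27. Next to Nr4a3 and Irs2 stood the stress factor Atf3, with 12.6 to 166 CPM (median 52.0) in the high libraries and 5.42 to 81.1 CPM (median 24.9) in the low (log2 1.08, SE 0.16, adjusted p = 2.55e-07), and Maff, a small MAF factor, with 2.52 to 21.1 CPM (median 6.03) in the high libraries and 1.01 to 7.92 CPM (median 3.45) in the low (log2 0.88, SE 0.14, adjusted p = 4.41e-06). Sik1, a kinase that CREB induces and that restrains CREB signalling, rose by 0.37 (adjusted p = 0.0233), and Crem and the phosphodiesterase Pde4d, both feedback genes of cAMP, by 0.29 and 0.29. The others were Klf6 (0.34), Ier5 (0.40), Ccn1 (0.41), Klf4 (0.21), Jun (0.26), Btg2 (0.48) and Ier3 (0.28, all log2). With library totals 11 were higher and 0 lower. The count was 6 higher in females alone and 8 in males alone, with 0 lower in each.

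The mean VST of this list was 10.4 to 12.1 in high libraries (median 11.1) and 10.01 to 11.6 in low (median 10.7), so the ranges overlapped widely. Of 18 heat shock chaperones 3 rose, 0 fell and 15 did not pass, beside 6.13% higher and 5.38% lower over all genes tested. In the libraries not chosen, 0 of the 18 had a called positive slope and 1, Hspb8, a called negative one, with a median slope of -0.016. Hspa1a, the stress-inducible HSP70, was at 9.13 to 331.7 CPM (median 45.5) in the high libraries and 7.09 to 145 CPM (median 26.6) in the low (log2 0.89, SE 0.22, adjusted p = 0.00406), its copy Hspa1b differed by 0.85 (adjusted p = 0.0157) and the co-chaperone Dnaja4 by 0.20 (adjusted p = 0.0156). Hspa1a and Hspa1b are near-identical, so their separate values are uncertain. With a heat shock score as a covariate, an alternative added after seeing the data, 9 of the 32 cAMP and activity-responsive genes were higher and 0 lower, and their median was 0.21.

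The nuclear genes of the respiratory chain had 1 call in the 100 libraries, where 11.5% of all genes tested were called. Of 36 complex I subunits 1 was called, Ndufs1, which rose by 0.082 (SE 0.024, adjusted p = 0.0180), with a list median of -0.029. In complexes II and III with cytochrome c 0 of 14 were called, of the nuclear cytochrome oxidase subunits 0 of 13, and of the nuclear ATP synthase subunits 0 of 18, by edgeR. The counts at an unadjusted p under 0.05 were 2, 1 and 2. DESeq2 called 1 higher in the first list and 0 in the others, and limma on the deposited VST values called 0 in all 3. The list medians were -0.013, -0.019 and -0.0100. In the 4 lists, the 95% interval reached less than 1.5-fold to either side of the estimate in 36 of 36, 14 of 14, 13 of 13 and 17 of 18 subunits. Cox4i1, a core oxidase subunit, was -0.0084 (95% interval -0.069 to 0.052), and the cytochrome c gene Cycs, 0.27 (95% interval 0.064 to 0.48), had an adjusted p of 0.0797. With library totals 0 were higher and 11, 2, 1 and 2 lower in these 4 lists. The median of the complex I list was then -0.080, beside -0.058 over all genes.

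The medians of these nuclear lists had opposite signs in the sexes. The complex I median was 0.045 in females alone and -0.098 in males alone, that of complexes II and III with cytochrome c 0.079 in females alone and -0.089 in males alone, that of cytochrome oxidase 0.058 in females alone and -0.081 in males alone and that of ATP synthase 0.066 in females alone and -0.10 in males alone. In males alone 3 complex I subunits were called, all lower, Ndufa13 (-0.22), Ndufa2 (-0.22) and Ndufb11 (-0.15, all log2), and in females alone 0 members of the 4 lists, with 7, 3, 1 and 7 at an unadjusted p under 0.05 by edgeR. The interaction with sex was called for 0 members of the 4 lists by edgeR, with 16 of 36, 9 of 14, 5 of 13 and 13 of 18 at an unadjusted p under 0.05, where all genes gave 2084 of 18822.

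The subunits encoded in the mitochondrial genome, which belong to the same complexes, gave another count. Of 13, 9 rose and 0 fell, beside 6.13% higher over all genes, with a median log2 difference of 0.24. mt-Co1, a cytochrome oxidase subunit, was at 26721 to 58799 CPM (median 37306) in the high libraries and 23844 to 43745 CPM (median 32927) in the low (log2 0.22, SE 0.045, adjusted p = 0.000492). mt-Nd1 and mt-Nd5 of complex I rose by 0.24 and 0.28, and mt-Atp8 of ATP synthase by 0.59 (SE 0.14, adjusted p = 0.00218). The count was 9 again by DESeq2, by limma and without the libraries whose RNA went against their label, and 7 with library totals, all higher. In females alone and males alone it was 0 and 2, with medians of 0.22 and 0.23.

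As a share of all counts, the mitochondrially encoded genes took 7.54% to 16.1% in high libraries (mean 11.001% ± 2.19, SD, n = 50) and 7.12% to 14.8% in low libraries (9.72% ± 1.41, n = 50). The means differed by 1.28 percentage points (permutation test within groups, 2-sided, 100000 resamples, p = 0.000770). The medians differed by 0.804 (permutation p = 0.0447), and without the 2 libraries that went against their label the means differed by 1.19 (permutation p = 0.00162). Within the 5 blocks of library numbers the difference was 2.84, 1.67, 0.361, 0.115 and 1.76 points, so it was positive in each and uneven in size. The libraries were made from poly-A RNA, which captures mitochondrial transcripts in part.

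**Figure D3:**
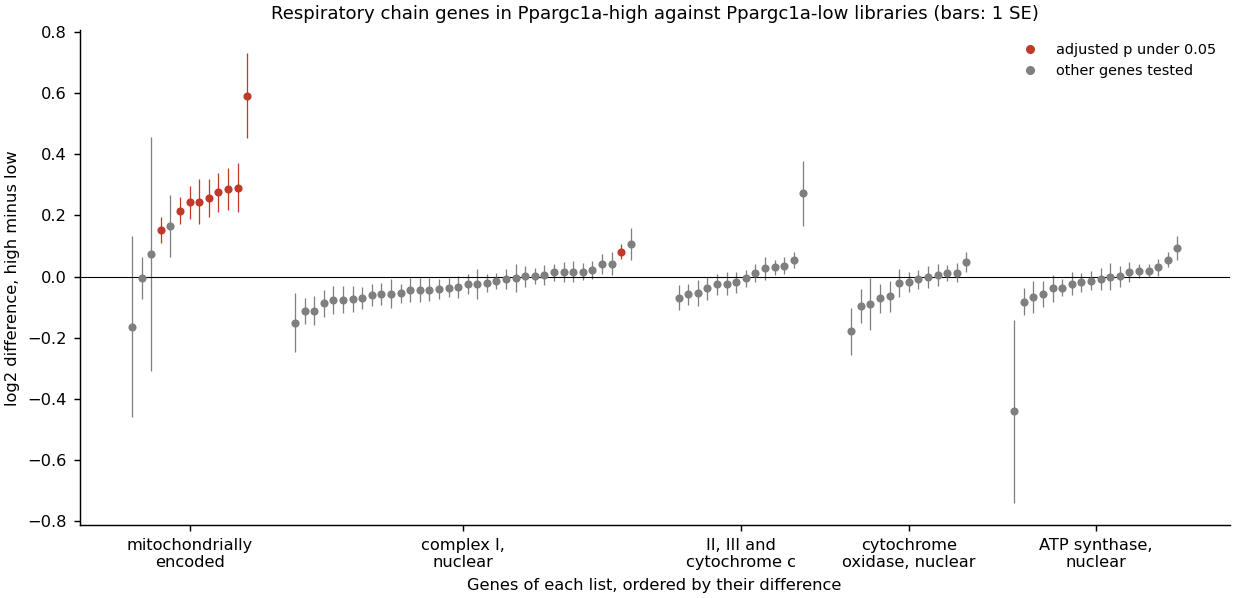
Log2 difference of high minus low libraries for each subunit of 5 lists of the respiratory chain and ATP synthase (bars, 1 SE; red, adjusted p under 0.05). The nuclear-encoded subunits sit near 0 with 1 call, Ndufs1, and 9 of the 13 mitochondrially encoded ones are called, all higher.

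Genes that express, import and maintain mitochondria were called in 3 of 36 and 5 of 24, beside 11.5% of all genes tested. Of 36 genes of mitochondrial DNA expression and import, Lrpprc, which stabilises mitochondrial mRNA, rose by 0.10 (adjusted p = 0.000548) and the import receptor Tomm70a by 0.099, and Timm13 fell by 0.16. Of 24 genes of mitochondrial dynamics and turnover 4 rose, the fusion GTPase Opa1 (0.080), the protease Yme1l1 (0.13), the fission GTPase Dnm1l (0.11) and Chchd3 (0.069), and the protease Clpp fell (-0.10, all log2). With library totals these lists had 0 higher with 9 lower and 0 higher with 6 lower. In the tricarboxylic acid cycle list 4 of 23 rose, Pdha1 (0.11), Dld (0.13), Sucla2 (0.11) and Idh3a (0.086), and with library totals 0 were called in either direction. Citrate synthase, Cs, was 0.041 (95% interval 0.00067 to 0.082), adjusted p = 0.195.

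Of 25 genes of mitochondrial fatty acid oxidation 0 were called by edgeR, DESeq2 or limma, and 0 reached an unadjusted p under 0.05. Their median was -0.0011, and all 25 intervals (95%) reached less than 1.5-fold to either side of the estimate. Here too the sexes had opposite signs, with a median of 0.084 in females alone and -0.069 in males alone. In females 0 were called, with 6 at an unadjusted p under 0.05, and in males 2, both lower, Acaa2 (-0.19) and Echs1 (-0.18, both log2). Of the 25, 0 had a called interaction with sex by edgeR. An unadjusted p under 0.05 for it was seen in 15, where all genes gave 2084 of 18822. With library totals 0 were higher and 1 lower, and in the libraries not chosen 1 had a called slope, Acss1 (0.12, positive). Acadm, the medium-chain dehydrogenase, was 0.026 (95% interval -0.055 to 0.11) and Cpt1b, which admits fatty acids to mitochondria, -0.029 (95% interval -0.097 to 0.038). Genes that PPARs use to switch fuel gave 3 of 19 higher and 0 lower, beside 6.13% higher and 5.38% lower over all genes tested. Pdk4, which holds back pyruvate oxidation, was at 478.1 to 4179 CPM (median 1417) in the high libraries and 431.3 to 2808 CPM (median 1050.0) in the low (log2 0.53, SE 0.12, adjusted p = 0.00155). Ucp3, a muscle uncoupling protein, rose by 0.39 (SE 0.098, adjusted p = 0.00424) and the lipid droplet protein Plin4 by 0.23 (adjusted p = 0.0449). With library totals the count was 2 higher and 1 lower. In females alone it was 3 higher and in males alone 0, with 0 called interactions with sex.

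In glycolysis 3 of 22 rose and 0 fell, where 6.13% of all genes were higher and 5.38% lower, shares against which the glycogen and insulin counts also stand. Hk2, the insulin-responsive hexokinase of muscle, was at 274.8 to 1072 CPM (median 451.8) in the high libraries and 242.2 to 509.97 CPM (median 337.01) in the low (log2 0.48, SE 0.058, adjusted p = 8.02e-10). The lactate carrier Slc16a1 rose by 0.26 (adjusted p = 0.000129) and the glucose carrier Slc2a1 by 0.22 (adjusted p = 0.0283), while the insulin-responsive carrier Slc2a4 was 0.046 (95% interval -0.017 to 0.11). In glycogen metabolism 4 of 17 rose, with UDP-glucose pyrophosphorylase Ugp2 (log2 0.31, SE 0.050, adjusted p = 3.52e-06), Ppp1r3a (0.19) and Phkb (0.12) among them, and the glycogen-targeting subunit Ppp1r3b fell (log2 -0.50, SE 0.16, adjusted p = 0.0235). In insulin signalling 4 of 20 rose, among them Pik3ca (0.11) and Irs1 (0.32), and Gsk3a fell (-0.072, all log2), a call that was lost in 22 of 31 alternatives, DESeq2 and limma among them. Irs1 was called in males alone (0.73) and not in females alone, and its interaction with sex was not called (edgeR adjusted p = 0.109). With library totals glycolysis had 2 higher and 1 lower, glycogen 1 and 3, and insulin signalling 2 and 3.

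Branched-chain amino acid breakdown had 1 call of 24, Dld, which is shared with pyruvate dehydrogenase. Over all genes tested 11.5% were called, and the other counts of this paragraph stand beside this share too. Library totals gave 0 higher and 5 lower in the branched-chain list. The kynurenine aminotransferases, known targets of PGC-1α in trained muscle, were -0.025 (95% interval -0.14 to 0.087) for Kyat1 and -0.029 (95% interval -0.15 to 0.088) for Kyat3. Their list of 9 had 0 calls by edgeR, DESeq2 and limma and 0 at an unadjusted p under 0.05. Of 22 antioxidant genes the regulator Nfe2l2 was called (log2 0.17, SE 0.055, adjusted p = 0.0280), and with library totals 0 were higher and 3 lower.

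Fibre-type genes gave no calls. Over all genes tested 6.13% were higher and 5.38% lower, and the vascular and junction counts below stand beside these shares. Of 12 slow-fibre and 14 fast-fibre contractile genes 0 were called by edgeR, DESeq2 or limma, with 1 and 1 at an unadjusted p under 0.05. Myh7, the slow myosin heavy chain, was 0.015 (95% interval -0.21 to 0.24), and Myh4, the fastest one, 0.0037 (95% interval -0.070 to 0.078). The median of the slow-fibre list was 0.17 in females alone and -0.18 in males alone, and that of the fast-fibre list 0.034 in females alone and -0.079 in males alone. The interaction with sex had 0 calls in both lists, with 2 and 2 at an unadjusted p under 0.05. The summed CPM of the slow list ran from 1473 to 9287 in high and from 691.5 to 6679 in low libraries. With library totals 3 fast-fibre genes were lower. Of 22 vascular genes 2 rose, the growth factor Vegfa, with 140.2 to 463.3 CPM (median 259.3) in the high libraries and 141 to 290.4 CPM (median 207) in the low (log2 0.29, SE 0.059, adjusted p = 0.000428), and its receptor Flt1 (log2 0.17, SE 0.041, adjusted p = 0.00190), which endothelial cells carry. Of 19 neuromuscular junction genes Musk, the agrin receptor kinase, was called (log2 0.29, SE 0.10, adjusted p = 0.0474), a call that was lost in 18 of 31 alternatives, and with library totals 0 were higher and 2 lower.

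Among secreted muscle factors 3 of 19 rose, beside 6.13% of all genes. Nampt, an enzyme of NAD synthesis that is also secreted, rose by 0.17 (adjusted p = 0.000788) and erythroferrone, Erfe, by 0.47 (adjusted p = 0.0379). The stress hormone gene Gdf15 was near the floor, at 0 to 0.438 CPM (median 0.0699) in the high libraries and 0 to 0.157 CPM (median 0.0481) in the low (log2 1.06, SE 0.28, adjusted p = 0.00659). Fndc5, the irisin precursor and a known PGC-1α target, was -0.037 (95% interval -0.17 to 0.095), and myostatin, Mstn, 0.11 (95% interval -0.037 to 0.26).

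Of 20 genes of muscle atrophy and autophagy 9 rose and 0 fell, beside 6.13% higher over all genes, and their median was 0.15. Trim63, the ubiquitin ligase MuRF1, was at 131 to 2184 CPM (median 313.7) in the high libraries and 129 to 532.7 CPM (median 226.6) in the low. Its highest high library held 9.84% of that class's summed CPM, and 46 of 50 high libraries lay above the low median (log2 0.80, SE 0.13, adjusted p = 5.03e-06). Fbxo32, the ligase atrogin-1, was at 316 to 2182 CPM (median 650.7) in the high libraries and 216 to 807 CPM (median 496.8) in the low (log2 0.52, SE 0.099, adjusted p = 0.000130). Fbxo30 rose by 0.39 (adjusted p = 5.29e-09) and the autophagosome protein Gabarapl1 by 0.42 (adjusted p = 0.000340), and Usp14 by 0.13, next to Foxo1, Foxo3, Klf15 and Cdkn1a. With library totals the count was 8 higher and 2 lower. In females alone 7 were higher and in males alone 4, with 0 lower in each, and the median was 0.24 in females alone and 0.035 in males alone. The interaction with sex was called for 0 of the 20, with 3 at an unadjusted p under 0.05.

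Glucocorticoid-responsive genes, which fasting and stress also raise, gave 9 of 18 higher and 0 lower, beside 6.13% higher over all genes, with a median of 0.26. Klf15, a factor of amino acid and lipid use in fasting, rose by 0.30 (SE 0.077, adjusted p = 0.00570), Klf9 by 0.17, the cell cycle inhibitor Cdkn1a by 0.43 and Zbtb16 by 0.23. The metallothioneins Mt1 (0.62) and Mt2 (0.72), Lcn2 (0.74), Fam107a (0.39) and Errfi1 (0.25) made up the 9. Klf15 and Cdkn1a are also on the atrophy list. The count was 5 with library totals, 11 by DESeq2 and 6 by limma, all higher. In females alone it was 3, Klf15, Mt1 and Tsc22d3, with 15 at an unadjusted p under 0.05, and in males alone it was 0, with 4. The median was 0.46 in females alone and 0.19 in males alone, and the interaction with sex was called for 0 of the 18, with 4 at an unadjusted p under 0.05. With the cAMP and activity-responsive score as a covariate, added after seeing the data, it was 0, while the atrophy list had 5 higher and the mitochondrially encoded subunits 9.

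Of 20 clock genes 2 rose and 2 fell, beside 6.13% higher and 5.38% lower over all genes. Nfil3, a repressor that acts opposite to Dbp, rose (log2 0.62, SE 0.10, adjusted p = 1.36e-05), as did the receptor Rora (0.19, adjusted p = 0.0113), and Nr1d1 and Dbp fell, Dbp with 1.23 to 21.97 CPM (median 4.04) in the high libraries and 1.21 to 29.1 CPM (median 6.94) in the low (log2 -0.62, SE 0.20, adjusted p = 0.0253). Arntl, the core activator BMAL1, was 0.16 (95% interval -0.044 to 0.36) and Per1 0.081 (95% interval -0.14 to 0.30). A clock score ran from -2.80 to 2.77 in high and from -2.66 to 2.65 in low libraries, and with it as a covariate 2073 genes were called. Of 20 genes of the integrated stress response Chac1 (0.67) and Vldlr (0.24) rose and Sesn2 fell (-0.19). With library totals the clock list had 2 higher and 4 lower and the stress list 1 and 1.

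**Figure D4:**
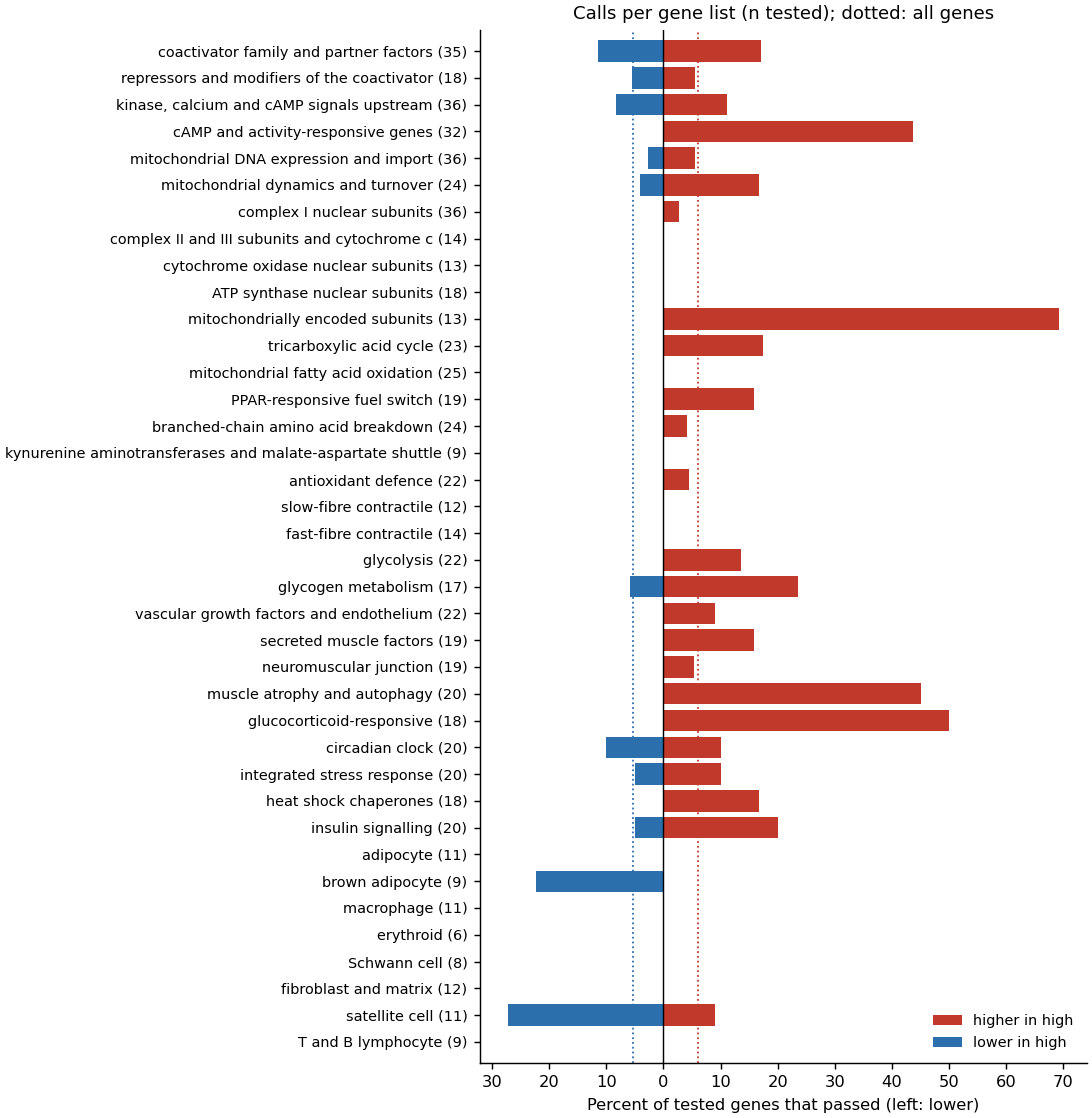
Percent of the tested members of each gene list called higher and lower in the high libraries, with dotted lines at the shares over all genes tested (6.13% higher, 5.38% lower). The cAMP and activity-responsive, mitochondrially encoded, atrophy and glucocorticoid-responsive lists have the largest shares higher, and the nuclear respiratory chain, fatty acid oxidation and fibre-type lists lie below the dotted lines.

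Markers of other cells had few calls, where 11.5% of all genes tested were called. Of 11 adipocyte, 11 macrophage, 6 erythroid, 8 Schwann cell, 12 fibroblast and 9 lymphocyte genes 0 were called by edgeR, DESeq2 or limma, with 2, 1, 0, 1, 0 and 3 at an unadjusted p under 0.05. With library totals 0 were higher and 1, 1, 0, 1, 0 and 0 lower. Adipocyte RNA varied widely, with the summed CPM of its list from 713 to 2823 in high and from 729 to 3434 in low libraries. Of its 11 genes 1 had a positive difference, and the median was -0.30. Of the 9 lymphocyte genes 0 had a positive difference, and their median was -0.70. They summed to 2.17 to 30.2 CPM in high and 1.34 to 129 CPM in low libraries, with medians of 3.93 and 3.51. The lymphocyte median was -1.72 in females alone and 0.020 in males alone, with 8 and 0 genes at an unadjusted p under 0.05 and 1 call in females, the B cell receptor subunit Cd79a (-3.10 log2, lower). G0s2, Agpat2 and Srebf1 are also abundant in fat. With adipocyte, macrophage, endothelial and erythroid scores as covariates G0s2 differed by -1.09 (adjusted p = 2.13e-07), Agpat2 by -0.24 (0.109) and Srebf1 by -0.51 (0.000171). Erythroid genes summed to 45.2 to 2788 CPM in high and 46.6 to 817 in low libraries.

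Of 9 brown adipocyte genes 2 fell, where 5.38% of all genes were lower and 6.13% higher. Ucp1, the brown fat uncoupling protein, was at 0 to 10.6 CPM (median 0.112) in the high libraries and 0 to 146 CPM (median 0.116) in the low, and 1 low library held 28.6% of its class's summed CPM (log2 -2.36, SE 0.82, adjusted p = 0.0467). The fitted fall rests on few libraries, since the medians were nearly equal, and limma called 0 of the 9. The lipid droplet protein Cidea was at 0.192 to 5.32 CPM (median 0.903) in the high libraries and 0.280 to 27.9 CPM (median 1.02) in the low (log2 -1.05, SE 0.30, adjusted p = 0.0132). The summed CPM of the list reached 217 in 1 low library and 30.4 at most in high libraries. Of 11 satellite cell genes 1 rose, the quiescence receptor Calcr (log2 0.52, SE 0.14, adjusted p = 0.00890), and 3 fell. Myod1, the myogenic factor that fibres also express, was at 1.81 to 24.7 CPM (median 10.02) in the high libraries and 6.96 to 40.1 CPM (median 14.9) in the low (log2 -0.56, SE 0.13, adjusted p = 0.00150), and the Notch genes Heyl and Notch3 fell by 0.20 and 0.14 on the log2 scale. With library totals 0 brown adipocyte and 1 satellite cell genes were higher and 3 and 4 lower.

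The same genes were looked at in the libraries that the rule did not choose, 35 to 40 in each group, as a slope on the VST of Ppargc1a centred within each group. Here 1852 genes (9.84%) had a slope past the threshold, 1097 positive (5.83%) and 755 negative (4.01%). With library blocks as a covariate the count was 1147 for 2 blocks and 1164 for 5. With library totals it was 2832, of which 2300 were negative. Of the 2167 genes called between high and low, 97.5% had a slope of the same sign. This was 97.2% of the higher and 97.8% of the lower ones, where 45.8% of all genes had a positive slope. A total of 1012 were called with the same sign in both, which is 46.7% of the high-low calls and 54.6% of the slope calls, and 3 with the other sign. Of the 127 called with at least 1.5-fold, 53 were also called by slope. Back in the 100 chosen libraries, the direction was the same in all 10 groups for 19.1% of the 2167 calls and for 2.51% of all genes. The calls were made on these same libraries, so the higher share is a description and not a further test.

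Per unit of Ppargc1a VST, Nr4a3 changed by 0.87 (SE 0.096, adjusted p = 1.42e-14) on the log2 scale, Irs2 by 0.61 (SE 0.073, adjusted p = 1.29e-12) and Retreg1 by 0.49 (SE 0.045, adjusted p = 2.24e-20). Impact (0.36, adjusted p = 1.42e-14) and Slc20a1 (0.41, adjusted p = 1.12e-17) had the same direction. All 12 rises passed in these animals too, the weakest being Xirp1 (0.22, SE 0.075, adjusted p = 0.0392). Among the 12 falls, G0s2 (-0.54, SE 0.085, adjusted p = 2.04e-07), Qpctl, Grip2, Cers1 and Rgma passed, and Agpat2, Lgr6, Srebf1, Nr1d1, Ttyh2 and Cacng7 did not. Ppargc1b had a negative slope (-0.15, SE 0.042, adjusted p = 0.00738) and Ppara a positive one (0.18, SE 0.045, adjusted p = 0.00293). Among the lists, 13 of 32 cAMP and activity-responsive genes, 9 of 13 mitochondrially encoded subunits, 11 of 20 atrophy genes and 10 of 18 glucocorticoid-responsive genes had a called positive slope. Over all genes tested 5.83% had one.

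Other genes of the high-low comparison did not pass in the libraries not chosen. Hspa1a had a slope of 0.069 (SE 0.16, adjusted p = 0.842) and Hspa1b of -0.015 (SE 0.17, adjusted p = 0.972), Rcan1 of 0.15 (SE 0.068, adjusted p = 0.136), Musk of -0.047 (SE 0.065, adjusted p = 0.719), Ucp1 of -0.12 (SE 0.45, adjusted p = 0.905) and Dbp of -0.095 (SE 0.15, adjusted p = 0.754). Conversely, Prkaa2 and Nrip1, which missed the threshold between the classes (called there in 12 and 3 of 31 alternatives), had called slopes of 0.099 (SE 0.023, adjusted p = 0.00146) and 0.14 (SE 0.046, adjusted p = 0.0256). The median slopes of the nuclear lists of complex I, complexes II and III, cytochrome oxidase and ATP synthase were -0.021, -0.015, -0.030 and -0.016.

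**Figure D5:**
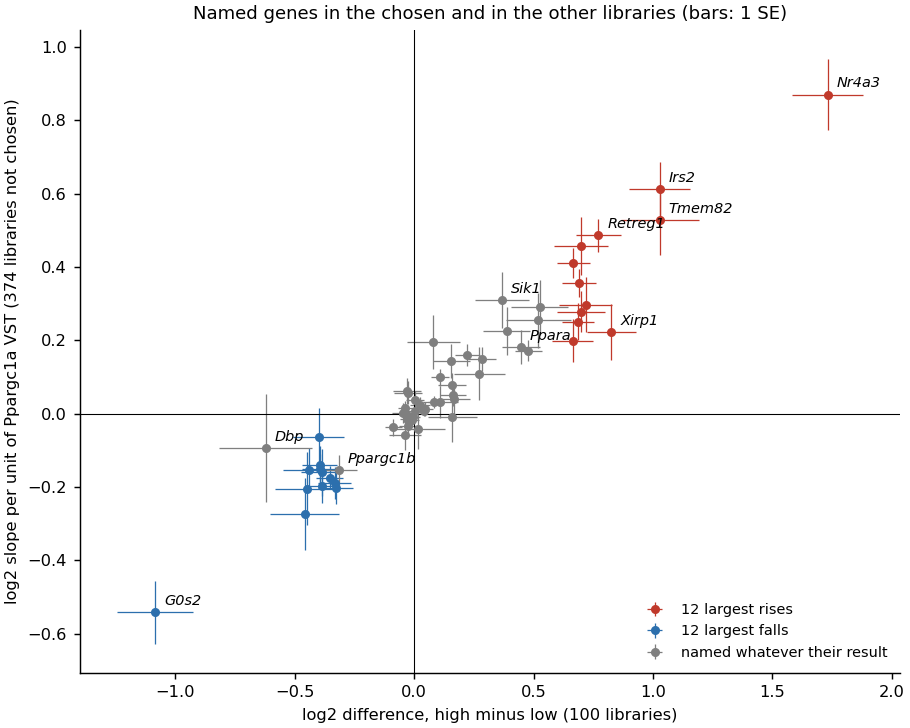
Log2 difference of high minus low libraries (horizontal axis) against the log2 slope per unit of Ppargc1a VST in the libraries not chosen (vertical axis), with 1 SE bars, for the 12 rises, the 12 falls and the fixed genes other than Ucp1 (log2 difference -2.36, slope -0.12), which is left out for its range. Nr4a3 lies highest on both axes and G0s2 lowest.

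Of 36 tested genes that start within 4 Mb of Ppargc1a, 6 were called, beside 11.5% of all genes tested, and 3 of the 6 overlap Ppargc1a. Gm42614 (log2 2.95), Gm42615 (2.44) and Gm43605 (1.09) are these 3, and their counts and those of Ppargc1a cannot be told apart without strand. The RNA helicase Dhx15 (0.13) and the lipid kinase Pi4k2b (0.24) rose and Smim20 fell (-0.16).

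The high-low difference was tested for a difference between the sexes. An interaction was called for 5 of 18822 genes (0.0266%), with 2084 at an unadjusted p under 0.05. limma on the VST values called 0, and without the libraries that went against their label edgeR called 0. None of the 12 rises or 12 falls was among the 5. Nr4a3 differed by 1.44 in females and 2.03 in males (interaction adjusted p = 0.421), Irs2 by 1.01 and 1.05 (adjusted p = 0.973), G0s2 by -1.27 and -0.90 (adjusted p = 0.699) and Ppargc1b by -0.44 and -0.19 (adjusted p = 0.531). Between generations 0 genes (0%) were called by edgeR, with 936 at an unadjusted p under 0.05, and 0 by limma. Without the 2 libraries that went against their label, 1 gene was called, Gm10051 (adjusted p = 0.0295), named after its value was seen.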

How the data were processed

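Poly-A RNA of gastrocnemius from DO mice was sequenced in 100-base read pairs, and both mates were combined and aligned as single reads to a transcriptome of the 8 founder strains. The expected counts per gene (20612 genes) were deposited by the authors as estimated by EMASE in GBRS after a filter on low counts, and 68.6% of them were whole to the sixth decimal. The authors also deposited VST scores made with DESeq2, and a table of other values, the gene positions, on GRCm38. Tool versions are not given in the sources used here. ERCC spikes were added but were not used here. The classes were set as described, and expected counts were rounded. edgeR 4.0.16 (R 4.3.3) was used with TMM factors, filterByExpr at a minimum count of 10 (18823 genes kept, 1789 removed) and the quasi-likelihood test with the 10 sex-by-generation groups as covariate, Ppargc1a left out, and Benjamini-Hochberg adjustment over 18822 genes at a threshold of 0.05. Slopes and interactions used the same model. Differences in the mitochondrial share and the total were tested by 100000 permutations within groups. DESeq2 1.42.0, limma 3.58.1, other scalings, filters, covariates, class sizes and left-out groups were run as alternatives, and the fits were tested on simulated data. Tables and figures were made with Python 3.11.15, numpy 2.4.6, pandas 2.3.3 and matplotlib 3.10.9.

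Reading the titles' numbers as generations is an assumption, and the animals' wave is not in the labels. The titles and the table columns name the same animals. No 2 libraries agreed within sampling noise (lowest chi-square per gene of any pair 63.6). The 100 libraries hold 48.3 to 166 M counts (M, mega-counts) each. Genes were named by rule, as the 12 largest rises and falls among called protein-coding genes with a mean of at least 1 CPM and the same sign in all 10 groups, a fixed set of PGC-1α genes, up to 4 members of each of 38 lists by adjusted p, and called neighbours within 4 Mb. Further members named with their lists are other calls, and some genes that the rule names are not reported here. The members and lists were chosen with earlier results of these data known. Each animal gave 1 library, so p-values measure the spread between animals.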

Additional observations from a re-analysis of the deposited data

Results flagged for a closer look

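In 5 genes, named after their values were seen, the high-low difference differed between the sexes by the interaction test of edgeR (adjusted p = 0.0435 for each). Without the 2 libraries whose RNA went against their label the adjusted p was 0.05004 for each and the sex differences were -3.24 for Krtdap, -0.60 for Pmm1, 1.16 for Susd1, 1.08 for Utp14b and 1.35 for Wdfy4 (log2, male minus female). None of the 5 was called in the comparison of all 100 libraries. Krtdap, a keratinocyte protein gene, had a male minus female log2 value of -3.23, with 2.40 in females and -0.83 in males, and 1 female high library held 57.0% of its class's summed CPM. Pmm1, a phosphomannomutase gene, had a value of -0.60, with 0.26 in females and -0.35 in males. Susd1, a sushi domain gene, had a value of 1.18, with -0.49 in females and 0.69 in males. Utp14b, a ribosome assembly gene, had a value of 1.10, with -0.47 in females and 0.62 in males. Wdfy4, a gene of antigen presentation, had a value of 1.34, with -1.01 in females and 0.32 in males.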

How the results depend on the processing

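Of the genes tested, 11.5% were called between high and low. This was 19.8% with library totals as scaling, 4.79% with 3 and 17.5% with 10 libraries per group and class, 2.01% in females and 5.403% in males, 6.66% with the cAMP and activity-responsive score as a covariate and 23.7% as a slope over all libraries. Within the 5 blocks of library numbers it was 0%, 0%, 0.143%, 0.0478% and 0.00531%, with 14 to 29 libraries each. In the first and second block, where edgeR called 0 genes, 2296 and 1687 had an unadjusted p under 0.05. Leaving out each group in turn gave 5.85% to 12.6%, with 5.85% without males of generation 17 and 6.76% without males of generation 18. Every other alternative stayed within 1.5 times of the 2167 calls, among them DESeq2 (2481) and limma on the deposited values (2126). Calls of at least 1.5-fold took 0.484% with a minimum count of 50, 0.122% by limma, 0.430% with 10 per group and class, 0.388% with the cAMP and activity-responsive score, 0%, 0%, 0.0744%, 0.0372% and 0.00531% within the blocks, and 0.462% to 0.744% when each group was left out. Slopes were called for 15.05% with library totals, 6.09% with 2 and 6.18% with 5 blocks as a covariate. Interactions with sex were called for 0.0425% with library totals, 0.0106% with 2 blocks, 0% by limma (1929 genes at an unadjusted p under 0.05) and 0% by edgeR without the 2 libraries that went against their label (2086 genes), and those with generation for 0.00531% without these. The cause of these changes was not tested, and the smaller fits differ in their animals as well as in the number of libraries. Over 200 named genes, 7193 values were recomputed. A change of sign was counted only for genes called in the main comparison. Uncalled genes such as Acadm (-0.067 to 0.12 over 31 alternatives) also changed sign and are not counted. Among the called genes 33 values, none called under its alternative, had the other sign. In block 1 these were Perm1 -0.016, Slc2a1 -0.053, Ucp1 0.37, Vegfa -0.0011 and Vldlr -0.28. In block 2 these were Nfe2l2 -0.023, Ppp1r3b 0.21 and Ucp1 2.83. In block 3 these were Calcr -0.11, Dnm1l -0.0040, Pik3ca -0.011, Ppargc1b 0.041, Ppp1r3a -0.031, Ppp3r1 -0.050, Tomm70a -0.0095 and Yme1l1 -0.030. In block 4 these were Klf9 -0.011, Pik3ca -0.00064, Ppp1r3a -0.037, Sirt1 -0.061, Ucp1 1.69 and Yme1l1 -0.019. In block 5 these were Dnm1l -0.044, Heyl 0.15, Lgr6 0.29, Rgma 0.30, Sesn2 0.026, Sik1 -0.17 and Zbtb16 -0.096. With the heat shock score as a covariate it was Hspa1b -0.038. With the cAMP and activity-responsive score as a covariate it was Hspa1b -0.032 and Sik1 -0.048. With adipocyte, macrophage, endothelial and erythroid scores as covariates it was Ucp1 0.24. Over the 31 alternatives other than single blocks, the named genes whose call was lost most often were Gsk3a (22 times), Ucp1 (19, counting 1 with the other sign), Musk (18), Perm1 (17), Chchd3 (15), Pik3ca (15), Plin4 (15), Erfe (14) and Phkb (13). No paired analysis was possible because the libraries of the groups share no replicate numbers. Depth limited genes such as Gdf15, with libraries at 0.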

Other observations

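Families picked after the values were seen are given as values only. Over all genes tested, 6.13% were called higher and 5.38% lower, and the counts below stand beside these shares. Flcn, the tumour suppressor folliculin, which holds back the transcription factors TFEB and TFE3 and is known to restrain PGC-1α in muscle, was at 48.4 to 137 CPM (median 74.3) in the high libraries and 32.1 to 68.9 CPM (median 49.2) in the low (log2 0.60, SE 0.054, adjusted p = 5.60e-15). Its partners Fnip1 and Fnip2 rose by 0.59 and 0.49 (adjusted p = 1.14e-13 and 1.19e-09), and Rragc and Mitf by 0.14 and 0.13. Of 11 genes of this group 5 rose and 0 fell, with 4 higher and 3 lower when library totals were used as scaling, and the slopes of Flcn and Fnip1 in the libraries not chosen were 0.34 (SE 0.033, adjusted p = 1.20e-17) and 0.34 (SE 0.035, adjusted p = 1.70e-16). The Flcn promoter is shown because it holds the palindromic cAMP response element, in capitals, at -49 to -42.
Flcn promoter, RefSeq GRCm38.p6, chr11:59810040-59810289, minus strand: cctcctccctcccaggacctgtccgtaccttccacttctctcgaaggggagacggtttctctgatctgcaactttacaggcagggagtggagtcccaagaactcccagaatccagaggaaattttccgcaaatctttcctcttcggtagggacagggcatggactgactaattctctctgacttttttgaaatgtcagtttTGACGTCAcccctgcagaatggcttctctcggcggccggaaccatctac

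Of 21 subunits of the vacuolar proton pump 4 rose, Atp6v1a (0.33), Atp6v1h (0.32), Atp6ap2 (0.25) and Atp6v0d1 (0.099), and 2 fell, Atp6v0c (-0.095) and Atp6v0a2 (-0.067, all log2), and with library totals 3 were higher and 6 lower. Of 78 mitochondrial ribosomal proteins 1 rose and 8 fell, together about the share called over all genes (11.5%), with a median log2 difference of -0.041, and 10 had a called negative slope in the libraries not chosen. With library totals 0 were higher and 35 lower. Among 10 guanylate-binding proteins, interferon-induced GTPases, Gbp10 rose by 1.03 and Gbp6 by 0.71. The relatives of Nr4a3 did not pass by edgeR, with 0.25 (95% interval 0.062 to 0.43) for Nr4a1 and 0.053 (95% interval -0.36 to 0.46) for Nr4a2, while DESeq2 called 2 of the 3 receptors higher. Nr4a1 had a called slope of 0.19 in the libraries not chosen (adjusted p = 0.0392).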
